A study of Mus musculus with 8 samples.

Results

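The 9 genes described here encode AMPA receptors and the auxiliary proteins that travel with them: the subunits Gria1, Gria2, Gria3 and Gria4, the transmembrane AMPA receptor regulatory proteins (TARPs) Cacng2, Cacng3 and Cacng8, and the cornichons Cnih2 and Cnih3. They were taken as a list of names, with no threshold on a measured value, from 23946 genes with a value in every library, and 9 of 9 passed the filter on low values that left 13143 genes for testing. Mouse cortical neurons in culture gave 8 RNA libraries, with 2 biological replicates of each genotype, Control or Rem2 KO, in each of 2 states, with or without KCl. Cells came from the cortex at embryonic day 16.5 and grew for 6 days. Each culture, treated or not, was kept overnight in 1 µM tetrodotoxin, which blocks voltage-gated sodium channels and so silences firing. The KCl groups then received 55 mM KCl for 4 h, which depolarises the membrane. Every library carries the same genotype label, Rem2 flx/flx, so that the groups called Control and Rem2 KO rest on the library titles. The source of Cre, the removed exons and whether a pair of replicates came from separate litters are not given in the sources used here. The p-values set differences between groups against the spread between these libraries.

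AMPA receptors are glutamate-gated channels that carry fast excitatory transmission. They assemble as tetramers, and receptors that contain the edited GluA2 subunit, the product of Gria2, pass little calcium. TARPs bring receptors to the surface, slow their gating and hold them at synapses by binding PSD-95, while cornichons aid export from the endoplasmic reticulum and slow deactivation. Rem2 is a small GTP-binding protein, induced by activity, that inhibits voltage-gated calcium channels.

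Each Gria gene carries a pair of alternative exons, flip and flop, that encode part of the ligand-binding domain and set how fast the receptor desensitises. They are shown because the values of the flip and flop transcripts of Gria1, Gria2 and Gria4 are given further on. Other differences exist: Gria1 has 2 deposited flip transcripts, and a short Gria4 transcript holds neither exon. Each exon is 115 bases long. Sequences are from GENCODE vM21 transcripts on mm10, read 5′ to 3′ on the strand of the gene, with capitals at the positions where flip and flop of the same gene differ: 36 positions in Gria1, 36 in Gria2 and 31 in Gria4. The Gria1 exons lie on the plus strand at chr11:57310608-57310722 (flip) and chr11:57309769-57309883 (flop). The Gria2 exons lie on the minus strand at chr3:80690404-80690518 (flip) and chr3:80691320-80691434 (flop). The Gria4 exons lie on the minus strand at chr9:4427030-4427144 (flip) and chr9:4432773-4432887 (flop).
Gria1 flip: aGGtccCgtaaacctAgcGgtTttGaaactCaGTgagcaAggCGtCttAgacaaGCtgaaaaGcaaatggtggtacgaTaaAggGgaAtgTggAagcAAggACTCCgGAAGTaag
Gria1 flop: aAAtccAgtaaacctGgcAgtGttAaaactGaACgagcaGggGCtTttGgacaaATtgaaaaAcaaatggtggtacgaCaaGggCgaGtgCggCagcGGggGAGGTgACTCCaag
Gria2 flip: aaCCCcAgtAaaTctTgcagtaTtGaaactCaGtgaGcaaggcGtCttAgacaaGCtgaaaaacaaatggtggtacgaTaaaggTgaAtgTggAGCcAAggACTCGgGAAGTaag
Gria2 flop: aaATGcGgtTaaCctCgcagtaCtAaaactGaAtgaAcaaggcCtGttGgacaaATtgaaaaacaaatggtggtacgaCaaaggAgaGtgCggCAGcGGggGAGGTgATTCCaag
Gria4 flip: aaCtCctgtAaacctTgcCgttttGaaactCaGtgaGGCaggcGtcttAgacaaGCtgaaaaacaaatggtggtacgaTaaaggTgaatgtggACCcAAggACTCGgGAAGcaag
Gria4 flop: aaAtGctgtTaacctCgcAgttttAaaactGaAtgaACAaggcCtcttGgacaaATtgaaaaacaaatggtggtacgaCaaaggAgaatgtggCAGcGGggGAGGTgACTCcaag
The Gria3 pair, on chromosome X, differs at 32 positions and is not printed, since its transcript with flop alone was listed at 0 in 8 of 8 libraries. A Gria3 transcript that holds both exons was at 1.16 FPKM in Rem2 KO with KCl 1 and listed at 0 in the others.

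Values are FPKM, a count of fragments scaled to transcript length and library size, computed by the authors per RefSeq transcript and summed here per gene. Rem2 itself was at 6.29 and 2.54 FPKM in Control, 22.5 and 21.4 in Control with KCl, 2.13 and 1.70 in Rem2 KO, and 11.7 and 12.4 in Rem2 KO with KCl. Rem2 was lower in both knockout groups than in the matching Control group but was not at 0. Transcript sums do not show whether the removed exons are covered. Depth is not given. A rough estimate took the most frequent depth, in coarse bins, that the FPKM and length of transcripts imply if they hold a single fragment. It gave 20.4 to 21.4 M fragments for replicate 1 libraries and 38.9 to 46.8 M for replicate 2 libraries. The first principal component, with 49.1% of the variance, separated the replicate numbers, and the second, with 32.5%, separated KCl from no KCl. Marker genes of neurons summed to 1494 to 1938 FPKM. Those of astrocytes and radial glia summed to 1590 to 2717 and those of the oligodendrocyte lineage to 301 to 482, so the cultures were not neurons alone. Microglial markers summed to 7.61 to 27.9 and endothelial and mural markers to 13.4 to 35.9.

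The cornichon Cnih2 was the most abundant of the 9 genes and Gria2 the most abundant subunit. FPKM is per length, so levels of genes can be set side by side. Averaged over 8 libraries, Cnih2 (chr19:5092868-5098521) stood at 207 FPKM, Gria2 (chr3:80681450-80804227) at 103 and Gria1 (chr11:57011571-57330244) at 42.0. In 8 of 8 libraries Cnih2 exceeded Gria2, Gria2 exceeded Gria1 and Gria1 exceeded Gria4. Gria4 (chr9:4417893-4796234) followed at 24.6 FPKM, above Cacng3 in 7 of 8 libraries. Cacng3 (chr7:122671744-122769393) at 17.2 and Cacng8 (chr7:3394042-3416266) at 16.2 did not hold an order, since Cacng3 was the higher in 4 of 8 libraries. The same held for Gria3 (chrX:41400819-41678601) at 12.5 FPKM and Cnih3 (chr1:181350459-181460641) at 12.4, where Gria3 was the higher in 3 of 8. Cacng2 (chr15:77991919-78120220), which encodes stargazin, was lowest at 8.79. Gene coordinates are those of RefSeq on GRCm38.p6, the assembly called mm10.

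Gria2 made up 49.1% to 62.9% of the summed FPKM of the 4 subunits, Gria1 19.0% to 28.6%, Gria4 11.5% to 16.6% and Gria3 4.60% to 8.22%. Gria4 took a higher share in the replicate 2 library than in the replicate 1 library of each group. The plot of composition by library shows this order of subunits in every library, with the TARPs beside it.

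**Figure D1:**
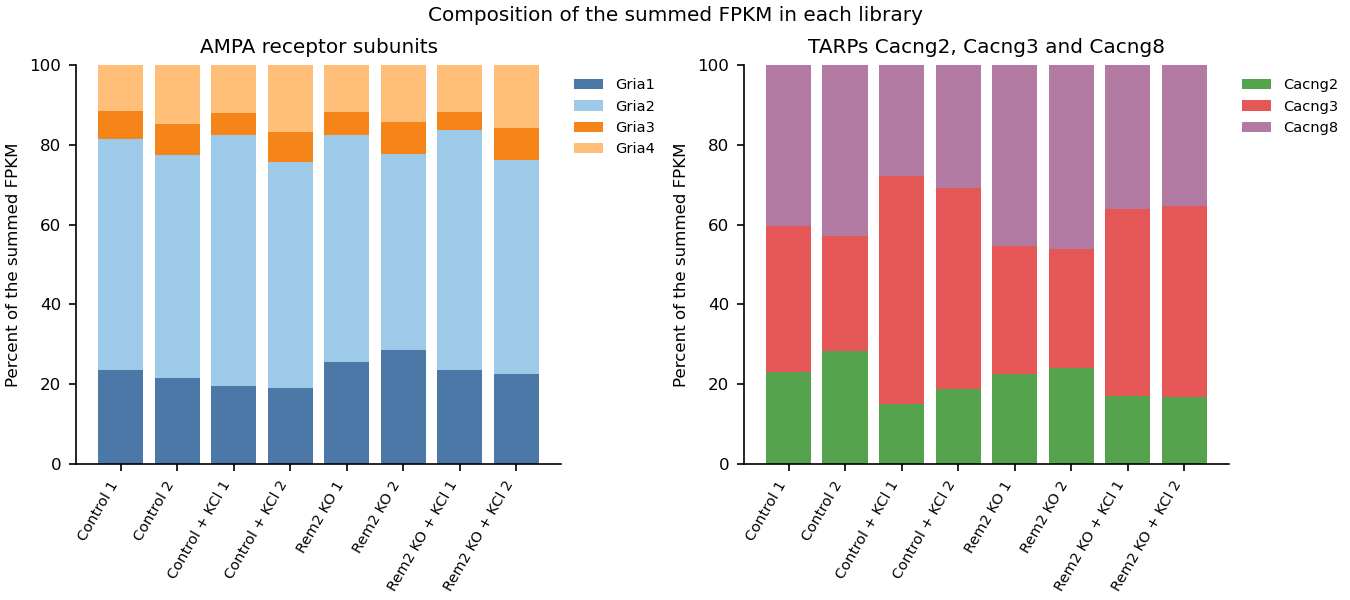
Share of each gene in the summed FPKM of the 4 AMPA receptor subunits (left) and of Cacng2, Cacng3 and Cacng8 (right), in percent, 1 bar per library. Gria2 is the largest subunit share in each bar, and the Cacng3 share is 46.9% to 57.1% in the 4 KCl libraries and 29.0% to 36.6% in the other 4.

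With KCl, 7 of the 9 genes were lower and 2, Cacng3 and Cnih2, were higher in 4 of 4 pairs of libraries with the same replicate number, a comparison over both genotypes. Of all genes tested 46.8% were lower and 23.7% higher in 4 of 4 such pairs. In Control cultures Gria1, Cacng2 and Cacng8 fell and Cacng3 rose by limma's test on log2(FPKM + 1), with a Benjamini-Hochberg adjusted p under 0.05 across the tested genes. So 1 of 9 rose and 3 of 9 fell, where 5.18% of all genes tested rose and 12.2% fell. In Rem2 KO cultures the same test called Gria1, Cacng2 and Cacng8 lower and no member higher, where 10.3% of all genes fell and 5.74% rose. The median log2 change of the 9 genes was -0.36 in Control and -0.37 in Rem2 KO. Over all genes tested the medians were -0.14 and -0.12. Quantile normalization moved the medians of all genes to -0.03 in both genotypes, and those of the members to -0.22 and -0.24. With that scaling 0 members rose and 1, Gria1, fell in Control, where 7.79% of all genes rose and 9.91% fell, and 0 rose and 3 fell in Rem2 KO, where 7.79% rose and 9.62% fell. In bulk RNA, fewer cells of a type and less RNA per cell cannot be told apart.

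**Figure D2:**
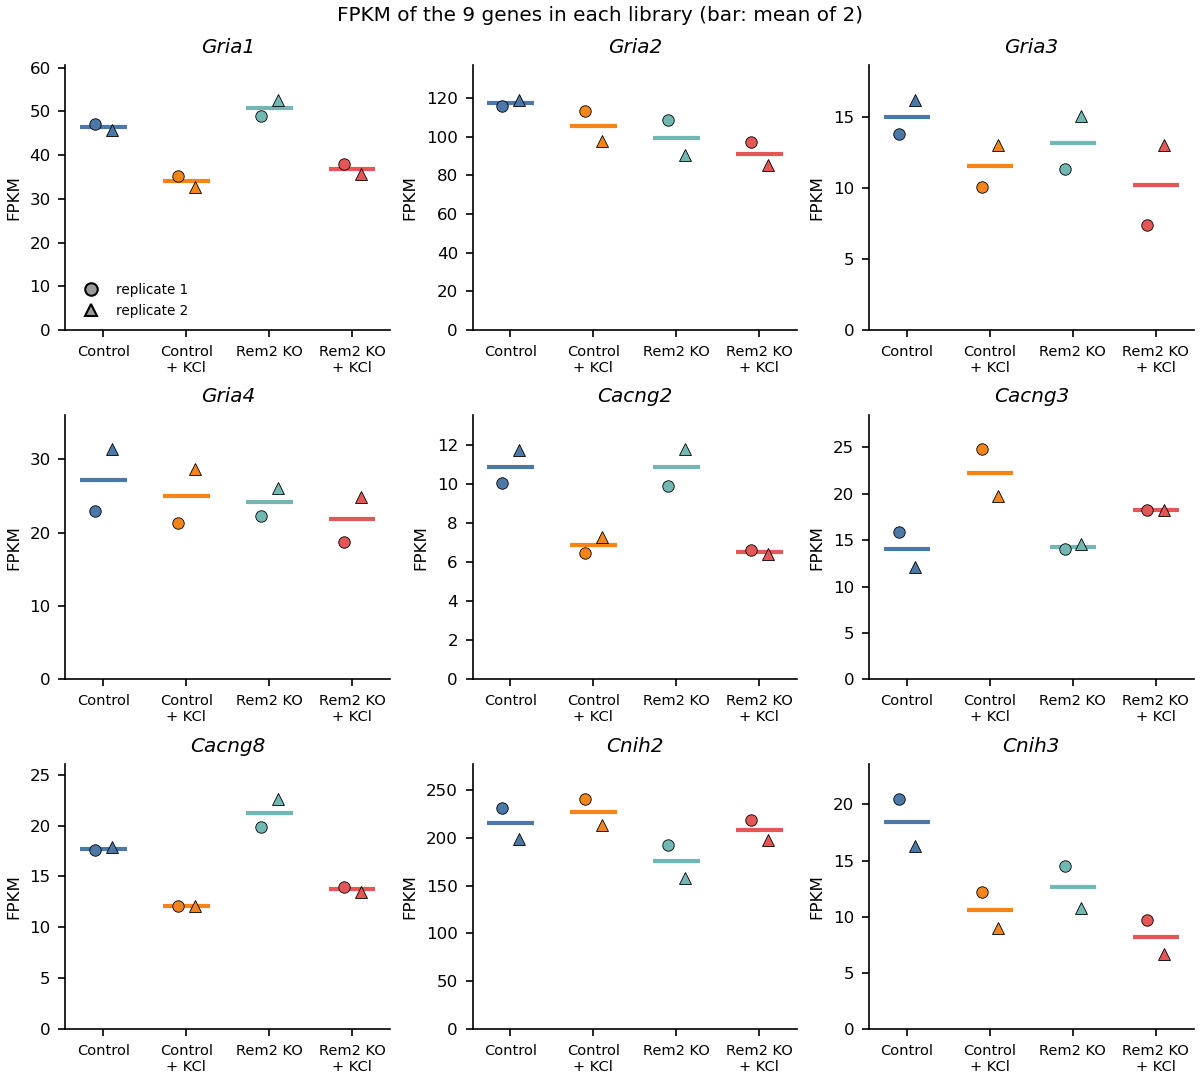
FPKM of each of the 9 genes in each library, with 1 point per library (circle, replicate 1; triangle, replicate 2) and a bar at the mean of 2. The KCl libraries lie below the libraries without KCl of the same genotype for Gria1, Cacng2, Cacng8 and Cnih3 and above them for Cacng3. Such separation was common: 39.6% of all genes tested were lower and 17.6% higher in Control, and 33.9% and 19% in Rem2 KO.

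Among the subunits, Gria1, which encodes GluA1, was at 47.2 and 45.8 FPKM in Control and 35.3 and 32.8 in Control with KCl. The Rem2 KO libraries were at 49.0 and 52.6 without KCl and 37.9 and 35.6 with it. The 4 KCl libraries were below the 4 others. The mean fell by 26.8% in Control (log2 change -0.44 on the FPKM + 1 scale, SE 0.0899, limma adjusted p = 0.0251) and fell by 27.7% in Rem2 KO (-0.46, limma adjusted p = 0.0239). With the most abundant transcript in each library in place of the sum, the Control change of Gria1 was 0.19 (limma adjusted p = 0.287). That transcript was not the same one in every Control library. Over 18 alternative settings the adjusted p of Gria1 in Control ran from 0.00355 to 0.287. Most of the Control fall of Gria1 rests on the flop transcript, at 7.65 and 9.67 FPKM and listed at 0 with KCl, which can be a failed estimate. The flip transcripts summed to 39.6 and 36.1 FPKM in Control and 35.3 and 32.8 with KCl.

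Gria2 was at 116 and 119 FPKM in Control and at 113 and 97.7 with KCl. Its Rem2 KO values were 109 and 90.4 without KCl and 97.2 and 85.3 with it. The Control groups did not overlap and the Rem2 KO groups did. Over all genes tested, 39.6% were lower and 17.6% higher without overlap in Control, and 33.9% and 19% in Rem2 KO. The same shares are the background for the other members. Neither change passed the test: -0.16 in Control (95% interval -0.50 to 0.18, limma adjusted p = 0.513) and -0.12 in Rem2 KO (-0.46 to 0.22, adjusted p = 0.640). With scaling factors of the TMM type, the Rem2 KO value was 0.0091.

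Gria3 was at 13.8 and 16.2 FPKM in Control, 10.1 and 13.1 with KCl, 11.3 and 15.1 in Rem2 KO, and 7.42 and 13.1 with KCl. Gria4 was at 23.0 and 31.4, 21.3 and 28.6, 22.3 and 26.1, and 18.7 and 24.9 FPKM in the same order of groups. Both genes were higher in the replicate 2 library of every group, and that gap exceeded the gap between the KCl states in each genotype for Gria4. Neither passed the test in either genotype. The Control changes were -0.36 for Gria3 (95% interval -1.05 to 0.34, limma adjusted p = 0.463) and -0.12 for Gria4 (-0.68 to 0.45, adjusted p = 0.822), the latter 0.038 under scaling factors of the TMM type.

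Among the TARPs listed, Cacng8 and Cacng2 fell and Cacng3 moved the other way. Cacng8, whose product TARP γ-8 is best known from the hippocampus, was at 17.6 and 17.9 FPKM in Control and 12.1 and 12.1 with KCl. It was at 19.9 and 22.6 in Rem2 KO and 14.0 and 13.5 with KCl. The KCl libraries lay below the others, and replicates differed less than the KCl states did. The mean fell by 31.8% in Control (-0.52, SE 0.0991, limma adjusted p = 0.0212) and fell by 35.5% in Rem2 KO (-0.60, adjusted p = 0.0154).

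Cacng2, which encodes stargazin, the TARP lost in the stargazer mouse, was at 10.0 and 11.7 FPKM in Control and 6.48 and 7.30 with KCl. Knockout cultures had 9.92 and 11.8 FPKM without KCl and 6.61 and 6.44 with it. Again the KCl libraries lay below the others. The mean fell by 36.7% in Control (-0.59, SE 0.139, limma adjusted p = 0.0380) and fell by 39.9% in Rem2 KO (-0.65, adjusted p = 0.0300).

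Cacng3, which encodes TARP γ-3, was at 15.9 and 12.1 FPKM in Control and 24.8 and 19.7 with KCl. In Rem2 KO it was at 14.0 and 14.6 without KCl and 18.2 and 18.3 with it. The KCl libraries lay above the others in each genotype. The mean was 59.0% higher with KCl in Control (0.64, SE 0.164, limma adjusted p = 0.0489) and passed the test. In Rem2 KO it was 27.5% higher (0.33, 95% interval -0.07 to 0.73, adjusted p = 0.238) and did not pass, except with the block and quantile normalization together (adjusted p = 0.0189; 0.0189 to 0.479 over 18 alternative settings). The difference between the genotypes was tested as an interaction and did not pass (-0.31, 95% interval -0.88 to 0.26, limma adjusted p = 1.00).

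The opposite directions changed which of these 3 TARPs led. Cacng3 made up 36.6% and 29.0% of the summed FPKM of the 3 TARPs in Control and 57.1% and 50.4% with KCl. In Rem2 KO it made up 32.0% and 29.8%, and 46.9% and 47.9% with KCl. Cacng8 led in the 4 libraries without KCl and Cacng3 in the 4 with it. The ratio of Cacng3 to Cacng8 was 0.644 to 0.905 without KCl and 1.30 to 2.05 with it. The sum of the 3 TARPs was 38.2 to 49.0 FPKM over the 8 libraries, and stood at 19.6 to 26.6 per 100 FPKM of the 4 subunits. It leaves out the TARP genes Cacng4, at 75.4 to 102 FPKM over the 8 libraries, and Cacng7, at 95.8 to 130. Both were above each of the 3 in every library and belong to the further auxiliary genes given below. The subunit sum was 184 to 213 FPKM without KCl and 159 to 180 with it.

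Of the cornichons, Cnih3 was at 20.5 and 16.3 FPKM in Control and 12.2 and 8.96 with KCl. In Rem2 KO it was at 14.5 and 10.8 without KCl and 9.72 and 6.64 with it. The KCl group of each genotype lay below its group without KCl, and the replicate 1 library was the higher in every group. The mean was 42.6% lower with KCl in Control (-0.75, SE 0.251, limma adjusted p = 0.0952) and 35.3% lower in Rem2 KO (-0.58, adjusted p = 0.180), and neither passed without the replicate block.

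Cnih2 was at 231 and 199 FPKM in Control, 241 and 214 with KCl, 193 and 158 in Rem2 KO, and 219 and 197 with KCl. The Control groups overlapped and the Rem2 KO groups did not. The changes were 0.08 in Control (95% interval -0.30 to 0.46, limma adjusted p = 0.813), which was -0.013 under quantile normalization, and 0.25 in Rem2 KO (-0.13 to 0.63, adjusted p = 0.341). The ratio of Cnih2 to Cnih3 was 11.3 to 14.7 in the 4 libraries without KCl and 19.8 to 29.8 in the 4 with it.

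Same-numbered libraries deviated together, so a fit with the replicate number as a block was also made. In it Cnih3 passed in Control (limma adjusted p = 0.000591; 0.000591 to 0.332 over 18 alternative settings) and in Rem2 KO (0.00150; 0.00150 to 0.493). Cnih2 passed in Rem2 KO with the block (0.0259; 0.0259 to 0.760). The blocked counts were 1 of 9 higher and 4 of 9 lower in each genotype. Over all genes the block raised the background as well, to 14.4% higher and 34.3% lower in Control and to 16.1% and 31.4% in Rem2 KO.

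**Figure D3:**
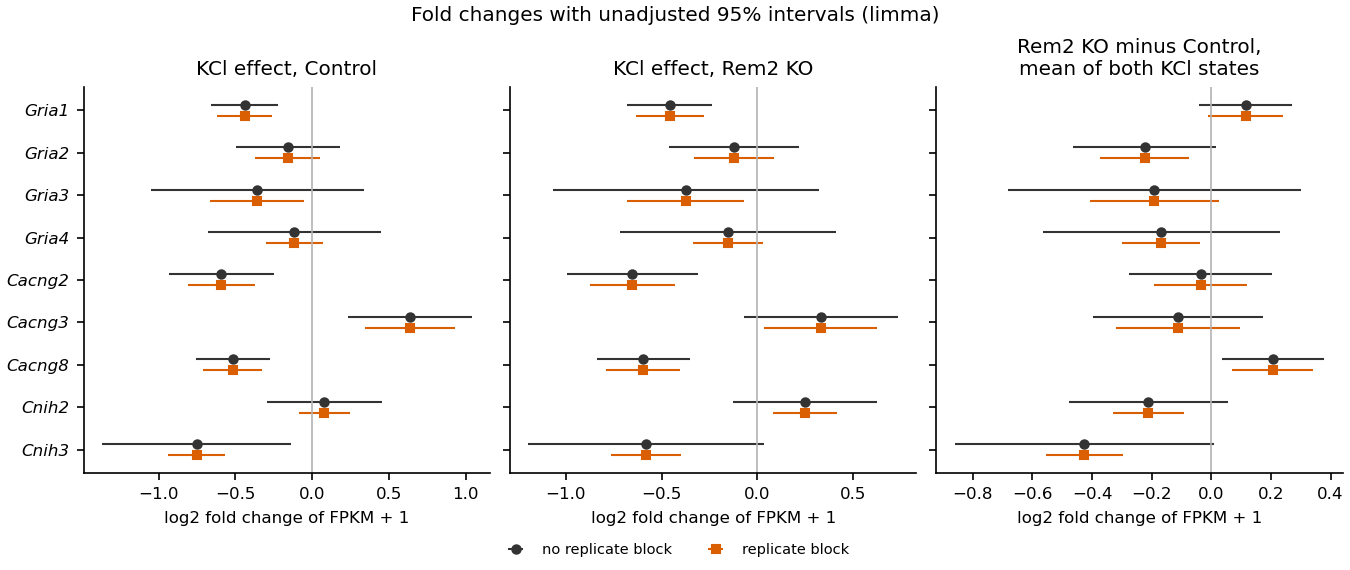
Log2 fold changes of FPKM + 1 for the 9 genes with unadjusted 95% intervals from limma, without (circles) and with (squares) the replicate block, for KCl in Control, KCl in Rem2 KO, and Rem2 KO minus Control averaged over both KCl states. The 2 fits give the same fold changes, and for KCl the intervals of Gria1, Cacng2 and Cacng8 lie below 0 in both genotypes and both fits.

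Most calls without the block were lost when a single library was left out, which leaves a group with 1 library that is assumed to vary like the others. For KCl in Control, 0 members passed without Control 1, Control 2, Control with KCl 1 or Control with KCl 2. Only Cacng8 passed without Rem2 KO with KCl 1 or 2, and Cacng3 was lost without Rem2 KO 1 or 2. For KCl in Rem2 KO, 0 members passed without Rem2 KO 2, Rem2 KO with KCl 1 or Rem2 KO with KCl 2, and Cacng8 alone passed without any of the 5 other libraries. The fold changes themselves moved less: across these fits Gria1 in Control ran from -0.49 to -0.39, Cacng2 from -0.69 to -0.49, Cacng8 from -0.53 to -0.51 and Cacng3 from 0.45 to 0.82.

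Markers of neurons and of neuron classes moved with KCl as well, in both directions. The sum of 7 general neuron markers was 1829 to 1938 FPKM in Control and 1494 to 1655 with KCl, and 1629 to 1753 and 1520 to 1539 in Rem2 KO. In that list Tubb3 fell in Control (-0.74, limma adjusted p = 0.0362), with -0.56 in Rem2 KO (adjusted p = 0.0814), and Snap25 and Nefl rose in both genotypes. The summed FPKM of 10 interneuron markers was 400 to 504 in Control and 1488 to 1773 with KCl, and 450 to 532 and 1389 to 1790 in Rem2 KO, with 3 of 10, Gad1, Gad2 and Sst, higher by the test in each genotype. Sst alone was at 145 to 220 FPKM in Control and 998 and 1269 with KCl, and no interneuron marker was at 0 in any library. Lhx6, of the same list, had changes of -0.49 and -0.63 (limma adjusted p = 0.310 and 0.202, and 0.00331 and 0.00140 with the block, where it was the 1 marker of 10 called lower). The sum of 7 excitatory neuron markers was 365 to 429 in Control, 618 to 697 with KCl, 352 to 371 in Rem2 KO and 549 to 626 with KCl, with 1 of 7 higher by the test in Control and 0 in Rem2 KO. With the block 6 of these 7 were higher in Control and 5 in Rem2 KO, and 5 of 10 interneuron markers were higher in each genotype. Of all genes tested, 5.18% rose in Control and 5.74% in Rem2 KO without the block. With it 14.4% and 16.1% rose, and 34.3% and 31.4% fell. The part of these markers in the changes of the 9 genes was not tested.

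No member passed the test between Rem2 KO and Control without the block, whether without KCl, with KCl or averaged over both, and none passed the interaction test of its KCl response. The limma adjusted p was 1.00 for each member in each of these contrasts. At an unadjusted p under 0.05 stood 1 member without KCl, 0 with KCl, 1 in the average and 0 in the interaction, where 1.36%, 1.48%, 2.5% and 0.502% of all genes did. Over all genes the test called 0.0228% without KCl, 0.0457% with KCl, 0.00761% in the average and 0.00761% in the interaction.

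Gria1 and Cacng8 were higher in Rem2 KO in 4 of 4 pairs of same-numbered libraries, and Gria2, Gria3, Gria4, Cnih2 and Cnih3 were lower in 4 of 4. Of all genes tested 8.95% were higher and 11.3% lower in 4 of 4 pairs. Without KCl the groups did not overlap for Gria1 and Cacng8, which were higher, and for Gria2, Cnih2 and Cnih3, which were lower, where 4.11% of all genes were higher and 12% lower in this sense. With KCl they did not overlap for Gria1 and Cacng8, higher, and Gria2 and Cacng3, lower, against 10.3% and 8.32% of all genes. The averaged changes were 0.12 for Gria1, 0.21 for Cacng8, -0.22 for Gria2, -0.17 for Gria4, -0.21 for Cnih2 and -0.43 for Cnih3. With the replicate block Cnih3 passed the test in the average (SE 0.0539, limma adjusted p = 0.0464; 0.0464 to 1.00 over 18 alternative settings), where 0.35% of all genes were called lower. Cnih2 (0.196), Cacng8 (0.254), Gria2 (0.259), Gria4 (0.324) and Gria1 (0.480) had adjusted p-values over the threshold in that fit. The Cnih3 sum includes a minor transcript listed above 0 only in Control with KCl, at 2.38 and 0.987 FPKM. In a blocked fit per transcript, the main Cnih3 transcript changed by -0.32 in the average and did not pass (limma adjusted p = 0.301).

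The transcripts of Gria1, Gria2 and Gria4 did not share 1 pattern. Cufflinks divides reads among transcripts of a gene, and a value listed at 0 can be a failed estimate, so these values are less certain than the sums. The flop transcript of Gria1 was at 7.65 and 9.67 FPKM in Control and at 10.0 in Rem2 KO 2, and was listed at 0 in the other 5 libraries, which include the 4 with KCl. The flip transcripts of Gria1 summed to 39.6 and 36.1 FPKM in Control, 35.3 and 32.8 with KCl, 49.0 and 42.6 in Rem2 KO, and 37.9 and 35.6 with KCl. The flip sums with KCl lay below those without in each genotype, by less than the gene sums did in Control.

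Gria2 flip was at 72.7 and 69.3 FPKM in Control, 54.9 and 47.3 with KCl, 62.6 and 44.8 in Rem2 KO, and 51.9 and 43.5 with KCl. The flop sum was at 43.1 and 49.9, 58.3 and 50.4, 46.2 and 45.6, and 45.3 and 41.8 FPKM in the same order of groups. Flop made up 37.2% and 41.9% of the flip and flop sum in Control and 51.5% and 51.6% with KCl. In Rem2 KO it made up 42.4% and 50.4%, and 46.6% and 49.1% with KCl, where the groups overlapped. In a fit across 16806 transcripts the flip transcript changed by -0.47 with KCl in Control (limma adjusted p = 0.191, and 0.0323 with the block, with 0.256 under quantile normalization) and by -0.15 in Rem2 KO (adjusted p = 0.704). That fit called 8.42% of all transcripts in Control and 8.24% in Rem2 KO without the block, and 27.5% and 27.4% with it. The 2 deposited transcripts of Gria2 counted as flop were so assigned because GENCODE pairs both with the same flop transcript. With 2 accessions for 1 transcript this assignment is uncertain, and the flop sums and percentages rest on it.

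Gria4 flip was at 9.54 and 13.3 FPKM in Control, 8.11 and 9.37 with KCl, 10.5 and 12.2 in Rem2 KO, and 6.38 and 6.77 with KCl. A shorter Gria4 transcript of 11 exons, which holds neither alternative exon, was at 8.92 and 15.2, 13.2 and 19.3, 9.71 and 8.17, and 10.7 and 16.5 FPKM in the same order. The flip values were lower and the short transcript's higher with KCl in each same-numbered pair. By limma the flip transcript changed by -0.34 in Control (adjusted p = 0.350) and -0.70 in Rem2 KO (0.0813, and 0.0136 with the block, with 0.0629 under quantile normalization). The short transcript changed by 0.42 (adjusted p = 0.521) and 0.53 (0.414). Gria4 flop was at 4.55 and 2.92 FPKM in Control, was listed at 0 in both Control libraries with KCl, and stood at 2.06 and 5.76 in Rem2 KO and 1.67 and 1.66 with KCl. By limma it changed by -2.22 in Control (adjusted p = 0.0347, and 0.0199 with the block). That call rests on values listed at 0, which can be failed estimates. Its change in Rem2 KO was -0.77 (limma adjusted p = 0.336).

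**Figure D4:**
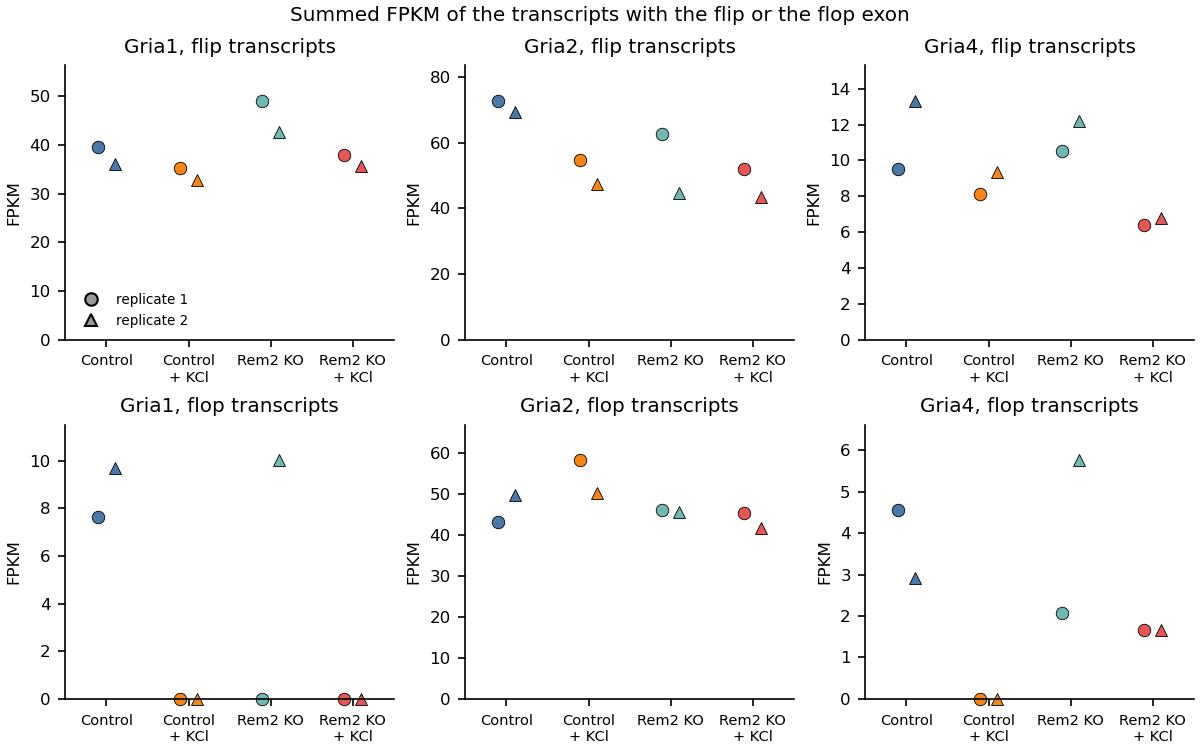
Summed FPKM of the transcripts that hold the flip exon (top) or the flop exon (bottom) of Gria1, Gria2 and Gria4, 1 point per library (circle, replicate 1; triangle, replicate 2), with axes that start at 0. Gria1 flop lies at 0 in 5 libraries, and Gria2 flip in Control falls from 72.7 and 69.3 to 54.9 and 47.3 with KCl.

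Among 23 further auxiliary and assembly genes of AMPA receptors, 0 rose and 3 fell with KCl in Control, and 0 rose and 2 fell in Rem2 KO. Over all genes tested 12.2% and 10.3% fell, a share close to that of the list. Shisa9, which encodes the auxiliary subunit CKAMP44, was at 20.9 and 21.1 FPKM in Control and 9.70 and 8.02 with KCl (-1.16, limma adjusted p = 0.00584). Frrs1l, which acts in early assembly of the receptor, was at 10.3 and 13.3 and at 5.60 and 6.51 with KCl (-0.86, adjusted p = 0.0335). Shisa9 and Frrs1l also fell in Rem2 KO (-0.90 and -0.89, limma adjusted p = 0.00954 and 0.0311). Vwc2l, related to the AMPA receptor-binding protein brorin, was at 1.64 and 1.46 FPKM and fell in Control to 0.573 and 0.470 (-0.75, adjusted p = 0.0343, and 0.190 under quantile normalization). Its change in Rem2 KO was -0.55 and did not pass without the block (limma adjusted p = 0.0814, and 0.00919 with it). The median change of the list was -0.27 in Control and -0.10 in Rem2 KO. With the block, 11 fell in Control, 10 in Rem2 KO and 0 rose in either, against 34.3% and 31.4% of all genes lower and 14.4% and 16.1% higher.

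Among 28 anchoring, trafficking and editing genes, 2 rose and 5 fell in Control, and 2 rose and 4 fell in Rem2 KO, against 5.18% higher and 12.2% lower of all genes in Control and 5.74% and 10.3% in Rem2 KO. Nptx2, a secreted pentraxin that gathers AMPA receptors at synapses, was at 2.73 and 5.00 FPKM in Control and 38.7 and 38.0 with KCl (3.06, limma adjusted p = 0.00651). It was at 2.64 and 5.86 in Rem2 KO and 48.2 and 45.8 with KCl (3.26, adjusted p = 0.00605). Dlg1, which encodes the scaffold SAP97 that binds GluA1, rose in Control from 11.1 and 12.3 to 17.5 and 21.1 FPKM (0.67, adjusted p = 0.0457; it and Syt7 were named after their values were seen). The Dlg1 change in Rem2 KO was 0.52 and did not pass without the block (limma adjusted p = 0.0922, and 0.00214 with it). Nptx1 rose in Rem2 KO (1.43, limma adjusted p = 0.0253). Its change in Control was 0.89 (adjusted p = 0.0879, and 0.00140 with the block). Rab11fip2, an adaptor of recycling endosomes, fell from 13.3 and 16.5 to 5.72 and 5.12 FPKM in Control (-1.31, adjusted p = 0.00626). Pick1, which binds GluA2 and acts in its internalisation, fell from 29.2 and 25.7 to 14.2 and 14.3 FPKM (-0.90, adjusted p = 0.00789). Epb41l1, which links GluA1 to actin, fell by 0.73 on the log2 scale (adjusted p = 0.0110). Grip2, which binds GluA2, fell in Control by 0.68 (limma adjusted p = 0.0329, and 0.263 under quantile normalization). The Grip2 change in Rem2 KO was -0.54 and did not pass without the block (adjusted p = 0.0660, and 0.00681 with it). Rab11fip2, Pick1, Epb41l1 and the synaptotagmin Syt7 fell in Rem2 KO as well. The Syt7 calls ended under quantile normalization (in Control at 0.234 and in Rem2 KO at 0.138, both adjusted). The median of the list was -0.01 in Control and -0.03 in Rem2 KO, and with the block 7 rose and 9 fell in each, where 14.4% of all genes rose and 34.3% fell in Control and 16.1% and 31.4% in Rem2 KO. In the averaged genotype contrast 0 genes of either list passed without the block. With it Syndig1, which encodes a synapse differentiation protein that binds AMPA receptors, was lower in Rem2 KO (-0.55, limma adjusted p = 0.0278), and Syt1, the calcium sensor of vesicle release, was too (-0.33, 0.0490). Without the block their adjusted p was 1.00, and under quantile normalization it was 0.886 for Syndig1 and 1.00 for Syt1.

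**Figure D5:**
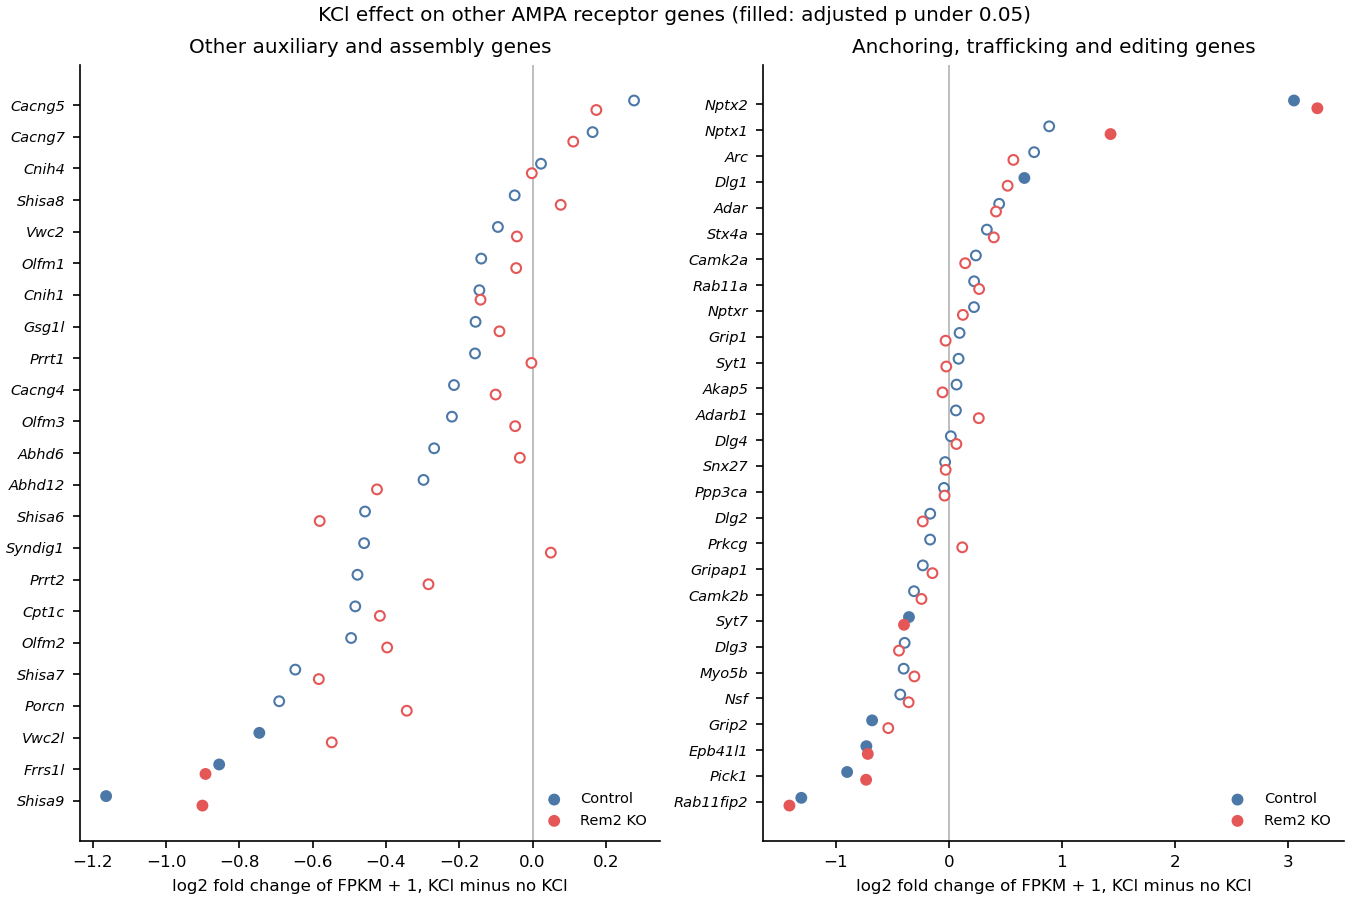
Log2 fold change of FPKM + 1 with KCl for 23 auxiliary and assembly genes (left) and 28 anchoring, trafficking and editing genes (right), in Control (blue) and Rem2 KO (red). Filled points passed limma's test at an adjusted p under 0.05, and Nptx2 lies apart at 3.06 and 3.26.

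For Cacng2, Cacng3 and Cacng8, each called in a KCl contrast, the 3 tested genes whose log2(FPKM + 1) followed the member most closely over the 8 libraries were found after subtracting the mean of each replicate number. Ppp3cc, Sez6l and N4bp3 were nearest to Cacng2 (Pearson's r of 0.998, 0.998 and 0.997), and Mcm3, Wrap53 and Mios to Cacng8 (0.996, 0.995 and 0.995). Omg, Zfp334 and Dnajc1 were nearest to Cacng3 (0.993, 0.992 and 0.985). The 8 libraries share the KCl contrast, so a gene that moves with KCl alone scores high. The size of the change was not matched by this measure: Ppp3cc changed by -1.30 in Control where Cacng2 changed by -0.59.

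RefSeq promoter windows of 300 bases on GRCm38.p6 were found for 7 of the 9 genes, with none for Gria1 and Gria3. Of these 7, 0 held the letters of the cyclic AMP response element, TGACGTCA, which 1.88% of 27025 promoters hold, and 0 held those of AP-1, TGANTCA, which 7.93% hold. The E-box CACGTG was in the window of 1 member, Cnih3, and in 7.24% of all promoters. Both strands were searched, and a missing match says only that these letters are not in the window.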

How the data were processed

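Per the file headers, the authors deposited FPKM for each RefSeq transcript. Per the submitters' processing notes these came from TopHat and Cufflinks on mm10, with versions not given in the sources used here. Of 34353 accessions 34205 were matched to a gene through RefSeq and GENCODE tables. The FPKM of a gene's transcripts were summed, and 306 genes were left out because an accession occurred more than once or lacked a value. Genes that reached 1 FPKM in 2 or more libraries entered a fit of log2(FPKM + 1) by limma 3.58.1 in R 4.3.3. The fit used empirical Bayes with a variance trend, 4 group means and 4 residual degrees of freedom. Adjusted p is Benjamini and Hochberg over all genes tested. Replicate numbers were taken to pair the libraries, since deviations from the group means correlated at 0.709 to 0.784 in 6 of 6 pairs of groups. Fits with that block had 3 residual degrees of freedom. No whole read numbers could be recovered, so no count test was run, and the number of fragments behind each value is unknown. Alternatives were other pseudocounts, filters and scalings, the block, each library left out, the most abundant transcript in each library and a fit per transcript. The last 2 and the block with quantile normalization were chosen after seeing the data. All 9 members were named, with genes of 2 further lists that passed the test, at most 6 per list by smallest p, with Dlg1 and Syt7 added. The members and lists were chosen with earlier results of these data known. The genes nearest to Gria1 in pattern are not reported here.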

Additional observations from a re-analysis of the deposited data

Results flagged for a closer look

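The deposited Gria1 flip transcript NM_001113325 moved in opposite directions with KCl in every pair of libraries of the genotypes. It was at 19.0 and 21.2 FPKM in Control and 22.9 and 24.8 with KCl, and at 30.7 and 28.4 in Rem2 KO and 18.0 and 21.1 with KCl. The interaction was -0.81 on the log2(FPKM + 1) scale and did not pass limma's test over all transcripts (adjusted p = 0.870, and 0.463 with the replicate block). Its KCl change was 0.24 in Control (adjusted p = 0.302) and -0.58 in Rem2 KO (0.0479, and 0.0153 with the block). The other Gria1 flip transcript, NM_001252403, went the opposite way, at 20.6 and 14.98 FPKM in Control and 12.3 and 7.98 with KCl, and at 18.3 and 14.2 in Rem2 KO and 19.9 and 14.4 with KCl. Its interaction was 0.83 (limma adjusted p = 1.00, and 0.291 with the block), and the estimates of both draw on the same reads where the transcripts overlap.

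The Gria2 transcript NM_001039195, with an uncertain assignment to flop, was at 23.8 and 32.7 FPKM in Control and 34.0 and 33.3 with KCl, and at 25.6 and 31.4 in Rem2 KO and 23.9 and 24.5 with KCl. Its interaction was -0.48 and did not pass either (limma adjusted p = 1.00, and 0.999 with the block). These are transcript estimates, and the gene sums of Gria1 and Gria2 moved the same way with KCl in both genotypes.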

How the results depend on the processing

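Each group had 2 libraries, and the members called for KCl had a limma adjusted p of 0.0154 to 0.0489. The part of depth in these calls was not tested. For the KCl and averaged genotype contrasts and the Cacng3 interaction there were 504 single-gene values under the alternatives. Of these, 427 kept direction and side of the threshold, 53 lost their call, 8 gained one and 16 reversed. Of 468 such values for the other contrasts, 431 kept both and 37 reversed. For KCl in Control, 4 members passed, against 2 with no filter on low values, 1 with quantile normalization and 2 with TMM-type scaling, and 0 to 3 with 1 library left out. For KCl in Rem2 KO, 3 passed, against 5 with the replicate block, 5 with the block and quantile normalization (with Cacng3 in and Cnih2 out), and 0 to 1 with 1 library left out. For the averaged genotype effect 0 passed, against 1 with the replicate block. The block changed no other member's call in these contrasts beyond those given beside the results. The cause of these shifts was not tested, except that a left-out library leaves fewer samples.

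Reversed values for KCl in Control were -0.013 for Cnih2 with quantile normalization, with or without the block, 0.038 for Gria4 with TMM-type scaling, and 0.19 for Gria1 and 0.38 for Gria4 with the most abundant transcript. For KCl in Rem2 KO they were 0.0091 for Gria2 with TMM-type scaling and 0.21 for Gria4 with the most abundant transcript. That transcript was picked in each library, so these Gria1 and Gria4 values set different transcripts against each other. In Rem2 KO, Gria4 flip (10.5 and 12.2 FPKM) was set against the short transcript with KCl (10.7 and 16.5). With 1 library left out, Gria4 ran from -0.33 to 0.10 and Cnih2 from -0.028 to 0.19 in Control, Gria2 from -0.25 to 0.011 and Gria4 from -0.35 to 0.042 in Rem2 KO, and Cacng2 from -0.093 to 0.020 in the averaged genotype effect. Without reversing, Gria3 ran from -0.53 to -0.19 in Control, Cnih2 from 0.11 to 0.39 and Cnih3 from -0.82 to -0.34 in Rem2 KO, Gria4 from -0.28 to -0.060 in the averaged genotype effect and the Cacng3 interaction from -0.49 to -0.12. The Gria3 share of the subunit sum was 6.83% over the 8 libraries and 11.7% with the most abundant transcript in each library.

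Over all genes, 2285 passed for KCl in Control and 6391 with the replicate block, and 126 to 1908 with 1 library left out. In Rem2 KO 2113 passed, 6245 with the block and 223 to 1422 with 1 library left out. The averaged genotype effect had 1 gene and 56 with the block, the effect with KCl 6 and 10, and the interaction 1 and 9.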
